A study of Mus musculus with 4 samples.

Results

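T cells that carried markers of the IL-17 type of gamma-delta T cell were followed in droplet single-cell RNA libraries of mouse liver. A cell was a member when it held at least 2 of the 5 transcripts Trdc, Cd163l1, Tcrg-C1, Trdv4 and Il17a with 1 or more UMIs (unique molecular identifiers, which count captured RNA molecules), at least 1 UMI over Cd3d, Cd3e and Cd3g, and 0 UMIs of Cd79a, Cd8b1 and Cd4. The rule found 546 members among 24030 kept cells, which were barcodes with at least 250 genes and at most 25% of UMIs from mitochondrially encoded genes. There were 98 members in KO 1, 82 in KO 2, 195 in Control 1 and 171 in Control 2. The 5 markers and the 6 CD3 and exclusion genes chose the cells, so their values in members are given as a description with no test. Il17a was tested only in cells chosen without it.

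Gamma-delta T cells are lymphocytes whose antigen receptor pairs a gamma with a delta chain in place of alpha and beta. Many of those in mouse liver, skin and lung leave the thymus already set to make interleukin 17, respond to IL-1 and IL-23 without a specific antigen, and stay in the tissue. IL-17 in the liver is known for recruiting neutrophils and for acting on stellate cells. Another type of gamma-delta T cell carries CD27, T-bet or Eomes, makes interferon gamma and granzymes, and resembles natural killer (NK) cells.

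The labels describe livers of male mice of the Cyr61fl/fl strain, aged 24 weeks, that had eaten a diet inducing non-alcoholic steatohepatitis (NASH) for 12 weeks. The groups were Cyr61 KO (2 libraries) and Control (2 libraries), both carrying the floxed Cyr61 alleles. The labels name no Cre driver, do not say in which cells Cyr61 was deleted or whether a library pools mice, and do not say that the 2 libraries of a group came from separate animals, so a p-value measures the spread between these libraries. Livers had been kept frozen in serum with DMSO, then thawed, digested and passed over a column against dead cells. Libraries held 4852 to 7253 barcodes and 8290677 to 20537236 UMIs. Ccn1, the gene of CYR61, had 0 and 12 UMIs in KO 1 and KO 2 against 184 and 149 in Control 1 and Control 2 over all barcodes, and none in any member, so the members themselves do not show the deletion. The members' median depth was 2697.5 and 3690 UMIs per cell in KO 1 and KO 2, against 1181 and 2700 in Control 1 and Control 2, so Control 1 was the shallowest. No member barcode was shared between libraries.

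The transcripts that carried the definition are shown first, because the rule rests on them. Trdv4 is a variable segment of the delta chain, and its second coding exon lies at chr14:54075217-54075515 on the plus strand of GRCm38. Tcrg-V6, which the rule did not use, is a variable segment of the gamma chain, and the last 300 bases of its second coding exon lie at chr13:19190630-19190929 on the plus strand. Both are shown as annotated by GENCODE vM21. Capitals mark the cysteine codon that follows a pair of tyrosine codons near the 3′ end of the exon, where the joined region of the receptor begins.
Trdv4: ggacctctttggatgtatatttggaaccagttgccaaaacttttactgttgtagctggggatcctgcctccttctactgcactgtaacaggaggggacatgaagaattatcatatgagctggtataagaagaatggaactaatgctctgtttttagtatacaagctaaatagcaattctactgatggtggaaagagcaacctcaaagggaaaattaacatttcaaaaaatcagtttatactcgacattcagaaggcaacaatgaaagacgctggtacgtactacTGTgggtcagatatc
Tcrg-V6: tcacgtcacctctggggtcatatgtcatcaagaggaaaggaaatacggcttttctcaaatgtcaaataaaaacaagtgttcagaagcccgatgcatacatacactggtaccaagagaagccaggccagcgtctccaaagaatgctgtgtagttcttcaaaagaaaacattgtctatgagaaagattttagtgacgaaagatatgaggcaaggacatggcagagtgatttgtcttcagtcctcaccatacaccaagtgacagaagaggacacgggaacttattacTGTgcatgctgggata

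Tcrg-C1 and Tcrg-C2 are near-identical copies of the gamma chain's constant region, and Tcrg-C4 is a more distant copy, all on chromosome 13. The first 120 bases of their first constant exon (chr13:19214103-19214222 on the plus strand, chr13:19307432-19307551 on the minus strand and chr13:19344558-19344677 on the plus strand of GRCm38, in that order) are shown so that the limit of the Tcrg-C1 count can be seen, with capitals for each base that differs from Tcrg-C1.
Tcrg-C1: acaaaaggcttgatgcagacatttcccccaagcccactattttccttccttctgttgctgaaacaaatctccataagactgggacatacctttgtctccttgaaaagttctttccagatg
Tcrg-C2: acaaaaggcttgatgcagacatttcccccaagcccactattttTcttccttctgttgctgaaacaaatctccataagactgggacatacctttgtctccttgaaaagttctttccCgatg
Tcrg-C4: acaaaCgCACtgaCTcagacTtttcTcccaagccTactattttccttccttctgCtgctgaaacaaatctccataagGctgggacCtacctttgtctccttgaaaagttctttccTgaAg
Over the 330 bases of the exon, Tcrg-C1 matched Tcrg-C2 at 97.3% of bases and Tcrg-C4 at 82.1%. Over the 140 bases of the last coding exon, nearer the 3′ end, it matched Tcrg-C2 at 97.1% and Tcrg-C4 at 68.6%. Reads of Tcrg-C1 and Tcrg-C2 may therefore be split or lost between them, and the Tcrg-C1 count is uncertain to that extent.

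Members were a smaller share of cells in both KO libraries than in both Control libraries. They were 1.37% (95% exact binomial interval 1.11 to 1.67%) of kept cells in KO 1 and 1.62% (1.29 to 2.01%) in KO 2, against 4.13% (3.58 to 4.74%) in Control 1 and 2.41% (2.07 to 2.80%) in Control 2. The intervals cover counting error only. The means were 1.49 ± 0.177% in KO and 3.27 ± 1.22% in Control (SD, n = 2 libraries each), a log2 ratio of −1.13. The groups did not overlap, and an exact permutation test over libraries (two-sided) returned p = 0.333, the smallest value that 2 against 2 libraries allow. With every cell thinned to 1000 UMIs, the shares were 0.913% and 0.530% in KO 1 and KO 2, against 3.30% and 1.91% in Control 1 and Control 2. Among CD3 cells (1 or more UMIs over the CD3 genes and 0 of Cd79a) the shares were 3.42% and 3.51% in KO 1 and KO 2, against 9.60% and 5.13% in Control 1 and Control 2. The share of 1 population also moves when others grow or shrink, so these values are shares and not cell numbers.

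Members were of 2 kinds by which markers they held, and at full depth the shares of the kinds lay in opposite directions between the groups. The second kind was set apart after the data were seen. Those with Cd163l1, Trdv4 or Il17a numbered 42 and 27 in KO 1 and KO 2, against 172 and 128 in Control 1 and Control 2, which was 0.587% and 0.533% of kept cells in KO, against 3.65% and 1.81% in Control. Those that qualified through Trdc and Tcrg-C1 alone numbered 56 and 55 in KO 1 and KO 2, against 23 and 43 in Control 1 and Control 2, which was 0.782% and 1.09% of kept cells in KO, against 0.487% and 0.606% in Control. At full depth the groups did not overlap in either kind, which is a description with no test, since the rule's own markers set the kinds apart. Cells with Cd163l1, Trdv4 or Il17a were thus 42.9% and 32.9% of the members in KO 1 and KO 2, against 88.2% and 74.9% in Control 1 and Control 2. After thinning to 1000 UMIs these shares were 52.9% and 54.2% in KO, against 86.5% and 78.3% in Control. They stood for 27 of 51 and 13 of 24 members in KO 1 and KO 2, against 83 of 96 and 83 of 106 in Control 1 and Control 2. The kept cells were then 5583 and 4528 in KO, against 2911 and 5564 in Control. As a share of those cells, the members with Trdc and Tcrg-C1 only overlapped between the groups. The higher KO share of that kind was thus seen at full depth only.

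**Figure D1:**
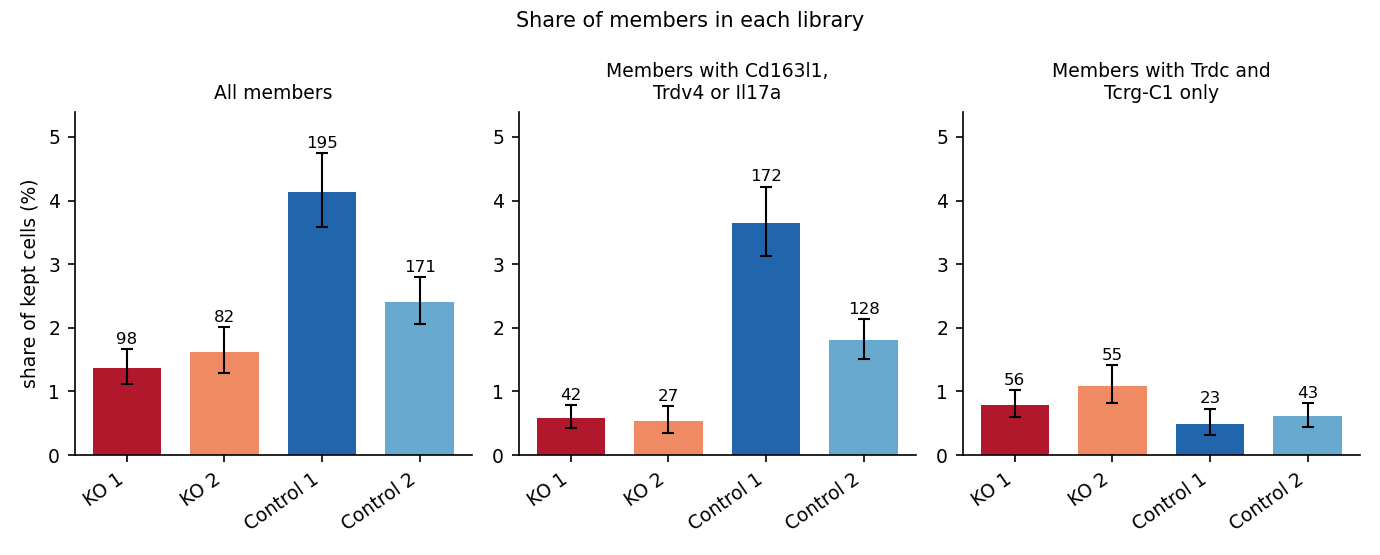
Share of kept cells (%, bars) in each library for all members and for each kind of member, with 95% exact binomial intervals and the number of cells above each bar. Members with Cd163l1, Trdv4 or Il17a made up 0.587% and 0.533% of the KO libraries and 3.65% and 1.81% of the Control libraries, while those with Trdc and Tcrg-C1 only were more frequent in both KO libraries.

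Each marker was found at a different rate. Trdc, the delta constant region, was in 94.9% and 96.3% of members in KO 1 and KO 2, against 87.7% and 90.1% in Control 1 and Control 2. Tcrg-C1 was in 86.7% and 89.0% in KO, against 64.6% and 80.7% in Control. Neither constant region is particular to the IL-17 type, and both were found more often in KO members. Cd163l1, which encodes the scavenger receptor SCART1 of IL-17 type gamma-delta T cells, was in 33.7% and 19.5% in KO, against 60.5% and 56.1% in Control. Trdv4 was in 27.6% and 14.6% in KO, against 59.5% and 51.5% in Control. Il17a was in 7.14% and 6.10% in KO, against 20.5% and 21.1% in Control. Cd163l1, Trdv4 and Il17a were thus found less often in both KO libraries. In B cells (Cd79a found, no CD3 UMI), which should lack all 5, each marker was in at most 0.758% of cells, at a median depth of 1162 to 2448 UMIs. Cells of an NK gate (Ncr1 found, no CD3 UMI) held Trdv4 in 7.35% and 8.76% of cells in KO 1 and KO 2, against 7.69% and 7.47% in Control 1 and Control 2, but at most 2.19% of them met the marker part of the rule.

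The rule's threshold passes through a dense range. Just inside it, 65 and 66 members held exactly 2 markers in KO 1 and KO 2, against 72 and 68 in Control 1 and Control 2. Just outside it, 196 and 194 cells that met every other term held 1 marker in KO, against 152 and 206 in Control. Trdc and Tcrg-C1 supplied most of those single markers, and Cd163l1, Trdv4 or Il17a supplied 16 and 3 of them in KO 1 and KO 2, against 20 and 17 in Control 1 and Control 2. Members with 3 or more markers numbered 33 and 16 in KO, against 123 and 103 in Control.

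The label was checked against markers that the rule did not use. At least 2 of 10 other type 17 genes (among them Il23r, Il1r1, Il17re, Ccr6, Maf, Sox13, Blk, Il17f and Zbtb16) were found in 38.8% and 37.8% of members in KO 1 and KO 2, against 50.3% and 65.5% in Control 1 and Control 2. At least 2 of 9 type 1 genes (Tbx21, Eomes, Ifng, Cd27, Il2rb, Klrd1, Nkg7, Ccl5 and Xcl1) were found in 60.2% and 64.6% of members in KO, against 13.3% and 30.4% in Control. In the other CD3 cells of the 4 libraries the type 17 genes reached 2 in 2.53 to 5.33% of cells, and in B cells in 1.70 to 5.54%. The type 1 genes reached 2 in 73.5% and 77.4% of other CD3 cells in KO 1 and KO 2, against 72.7% and 73.9% in Control 1 and Control 2. In B cells they did so in 4.73 to 8.05%. The type 1 share of members thus lay below that of the other CD3 cells in every library, by less in KO than in Control. By these genes the name of an IL-17 type cell thus fitted a smaller share of the KO members than of the Control members. The cells are therefore called members below, and those with Cd163l1, Trdv4 or Il17a are called marked members.

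The kinds of member also differed in these genes within each library. Among marked members, 73.8% and 66.7% in KO 1 and KO 2 held at least 2 type 17 genes, against 52.9% and 74.2% in Control 1 and Control 2, so the groups overlapped. Thinned to 1000 UMIs per cell, this share was 41.0% and 34.6% in KO, against 41.7% and 37.9% in Control. Most marked members thus held 2 of these genes at full depth only. Among members with Trdc and Tcrg-C1 only, 12.5% and 23.6% held at least 2 type 17 genes in KO, against 30.4% and 39.5% in Control. Type 1 genes reached 2 in 78.6% and 81.8% of those Trdc and Tcrg-C1 cells in KO, against 39.1% and 53.5% in Control. In marked members the type 1 genes reached 2 in 35.7% and 29.6% in KO, against 9.88% and 22.7% in Control. The kinds differed in depth between libraries, with a median of 2947.5 and 3838 UMIs in the Trdc and Tcrg-C1 cells of KO 1 and KO 2, against 1492 and 3184 in those of Control 1 and Control 2. Summed over those cells, the 9 type 1 genes made up 9846 and 8920 CPM in KO, against 9926 and 6095 in Control, so by level the groups overlapped and Control 1 was highest. In marked members the same sum was 3796 and 4583 CPM in KO, against 599.7 and 1563 in Control, without overlap. Thinned to 1000 UMIs per cell, the type 1 share of the Trdc and Tcrg-C1 cells was 72.7% and 72.7% in KO, against 47.1% and 47.5% in Control, over 55 and 55 cells in KO and 17 and 40 in Control. No order was read from this share, which goes against the summed level. After all members were thinned to 1000 UMIs (4 and 1 shallower cells left out in KO 1 and KO 2, 70 and 15 in Control 1 and Control 2), the type 1 share over all members was 50.0% and 55.6% in KO, against 10.4% and 21.2% in Control. The type 17 share was then 22.3% and 18.5% in KO, against 39.2% and 34.0% in Control.

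**Figure D2:**
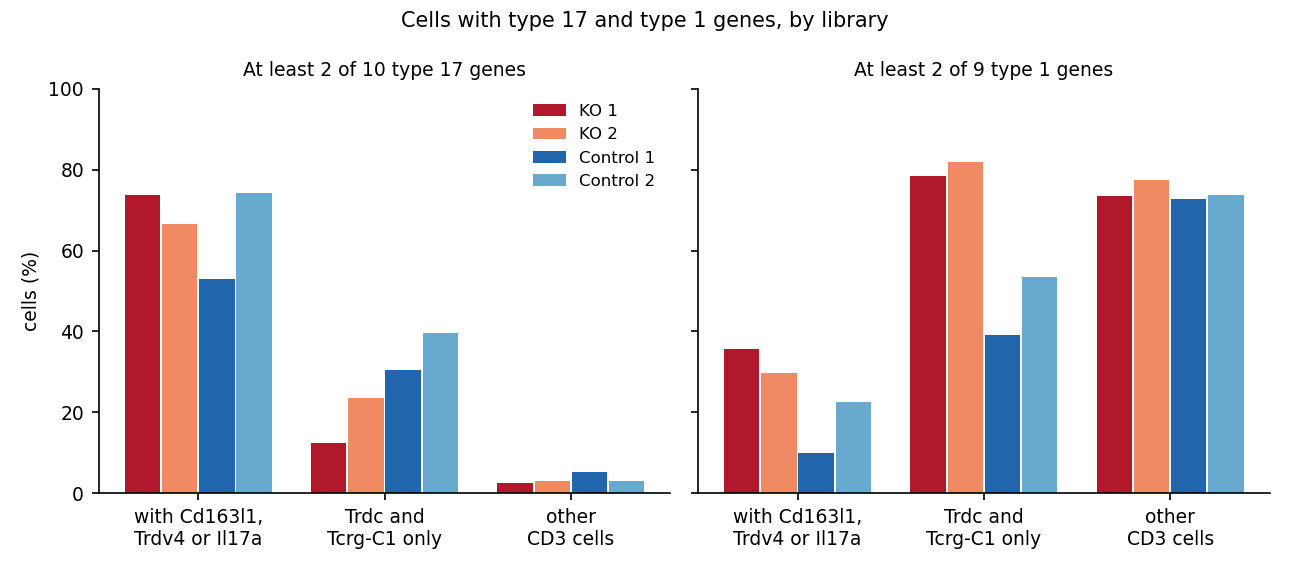
Share of cells (%, bars) with at least 2 of 10 type 17 genes or 2 of 9 type 1 genes in marked members, in members with Trdc and Tcrg-C1 only and in other CD3 cells, by library, at full depth. In members with Trdc and Tcrg-C1 only, type 1 genes were found in 78.6% and 81.8% of cells in KO and 39.1% and 53.5% in Control, while their summed level, not plotted, was 9846 and 8920 CPM in KO and 9926 and 6095 in Control.

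Set against the other CD3 cells of the same libraries, members carried a type 17 gene programme that the rule had not used. Of 9030 genes tested with edgeR's quasi-likelihood test on counts summed per library, with the library as a block, 752 passed at an adjusted p below 0.05, which is 8.33%. Of these 409 were higher (4.53%) and 343 lower (3.8%) in members. Levels are given in CPM, a gene's UMIs per 1000000 UMIs of the summed cells, which are not corrected for transcript length. Among 15 type 17 regulators, all tested, 7 were higher and 0 lower (median log2 difference 0.84, against −0.03 over all genes). Among the type 17 receptors and surface genes 17 of 23 tested were higher and 0 lower (median 2.58). With the other CD3 cells limited to those without Cd4 and Cd8b1, 610 of 8253 genes passed, 7.39% (4.01% higher, 3.38% lower), and the same lists had 7 of 15 and 17 of 23 higher. Without Control 2, 339 genes passed against all other CD3 cells and 180 against those without Cd4 and Cd8b1.

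Among the regulators, Blk, a Src family kinase known from B cells and from IL-17 type gamma-delta T cells in mice, had 110.5, 136, 235 and 184 CPM in the members of KO 1, KO 2, Control 1 and Control 2, against 5.37, 4.06, 9.83 and 5.79 in the other CD3 cells of the same libraries (log2 difference 4.65 ± 0.19 (SE), edgeR adjusted p = 2.45e-11). All 4 member values lay above all 4 of the other CD3 cells. Sox13, a transcription factor of the gamma-delta lineage, had 39, 65.2, 119 and 82.7 CPM in the members of KO 1, KO 2, Control 1 and Control 2, against 1.28, 0.768, 4.91 and 1.77 in the other CD3 cells of the same libraries (log2 difference 5.20 ± 0.34 (SE), edgeR adjusted p = 5.36e-09). Sox13 too was higher in the members of every library, a condition for naming it by rank, with the lowest values of both cell groups in the KO libraries. Maf, a transcription factor needed for the IL-17 type in mice, averaged 518 ± 239 against 260.1 ± 109.6 CPM in members and other CD3 cells (SD, n = 4 libraries each; log2 difference 0.87 ± 0.13 (SE), edgeR adjusted p = 0.000177). Zbtb16, the innate lymphocyte factor PLZF, averaged 41 ± 17.7 against 7.05 ± 2.20 (log2 difference 2.46 ± 0.33 (SE), edgeR adjusted p = 5.50e-05).

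Receptors of the cytokines that drive these cells were among the larger differences. Il23r had 16.2, 59.3, 140.2 and 68.6 CPM in the members of KO 1, KO 2, Control 1 and Control 2, against 1.41, 0.878, 4.30 and 2.26 in the other CD3 cells of the same libraries (log2 difference 4.86 ± 0.36 (SE), edgeR adjusted p = 3.40e-08). Il1r1, the interleukin 1 receptor, averaged 75.2 ± 59.3 against 6.34 ± 8.12 CPM in members and other CD3 cells (SD, n = 4; log2 difference 3.77 ± 0.34 (SE), edgeR adjusted p = 3.75e-07). Il17re, a subunit of the interleukin 17C receptor, averaged 53.8 ± 40.2 against 4.87 ± 5.86 (log2 difference 3.64 ± 0.35 (SE), edgeR adjusted p = 7.57e-07). Il1r1 and Il17re were highest in the Control libraries, which the wide SDs reflect. The chemokine receptor Ccr6 averaged 33.8 ± 13.3 against 2.23 ± 0.882 (log2 difference 3.84 ± 0.39 (SE), edgeR adjusted p = 1.60e-06), and the leukotriene B4 receptor Ltb4r1 74.7 ± 50.6 against 8.10 ± 4.04 (log2 difference 3.09 ± 0.30 (SE), edgeR adjusted p = 7.73e-07). Ramp1, a part of the receptor for the neuropeptide CGRP, averaged 287 ± 238 against 38.4 ± 13.9 (log2 difference 2.58 ± 0.21 (SE), edgeR adjusted p = 1.20e-07). Tmem176a and Tmem176b, paired ion channel genes known from type 17 lymphocytes, averaged 546 ± 269.7 against 58.1 ± 46 and 521 ± 311 against 71 ± 63.9 CPM (log2 differences 3.27 ± 0.17 and 2.93 ± 0.17 (SE), edgeR adjusted p = 3.19e-10 and 1.06e-09). In Tmem176a and Tmem176b the other CD3 cells of Control 1 were also high, at 125 and 165, but below the members of every library.

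The remaining genes with the smallest p were of mixed function. S100a4, a calcium-binding protein of motile and memory cells, averaged 2264 ± 686 against 502 ± 163 CPM in members and other CD3 cells (SD, n = 4; log2 difference 2.07 ± 0.11 (SE), edgeR adjusted p = 3.19e-10). Mmp25, a membrane-anchored metalloproteinase, averaged 97.3 ± 24.6 against 4.72 ± 2.19 (log2 difference 4.36 ± 0.26 (SE), edgeR adjusted p = 1.37e-09). Actn2, an actin crosslinker best known from muscle, averaged 203 ± 91.1 against 20.6 ± 2.63 (log2 difference 3.15 ± 0.20 (SE), edgeR adjusted p = 2.92e-09). In all 3 genes the groups of cells were apart. Serpinb1a, a protease inhibitor, averaged 128 ± 59 against 11.9 ± 9.03, the crystallin gene Cryba4 53.3 ± 18.3 against 1.65 ± 0.587 and the potassium channel gene Kcnk1 60.5 ± 31 against 1.65 ± 1.17 CPM. Capg, an actin capping protein, averaged 214 ± 102 against 44.4 ± 15, the semaphorin receptor Plxnd1 81 ± 28.7 against 6.86 ± 5.70 and the insulin-like growth factor receptor Igf1r 152 ± 74.6 against 17.4 ± 4.44. These 6 genes had log2 differences of 3.47, 4.94, 5.20, 2.14, 3.64 and 3.01 in that order. Each was higher in the members of all 4 libraries, which was a condition for naming it.

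**Figure D3:**
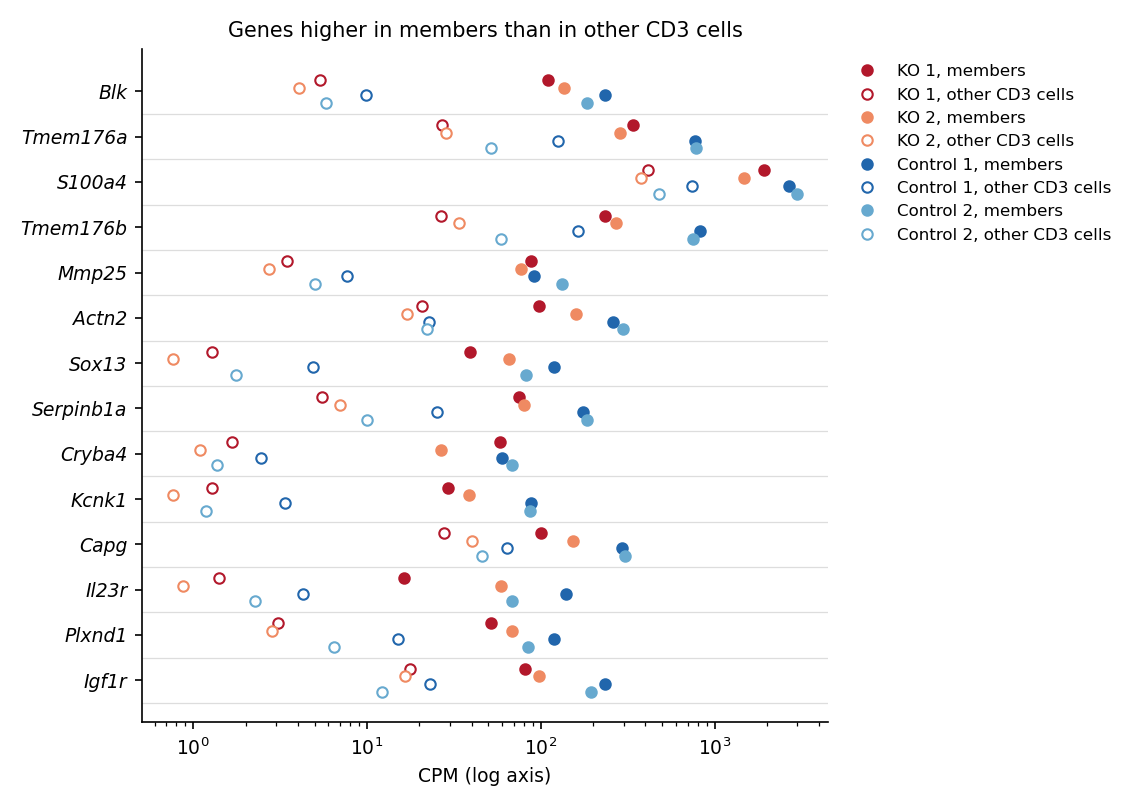
CPM (log axis) of 14 of the 15 genes with the smallest p among those higher in members in all 4 libraries, in members (filled) and other CD3 cells (open) of each library. Blk stood between 110.5 and 235 in members and at 9.83 or less in other CD3 cells.

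Members also differed in secreted factors and in receptor segments. Of 16 cytokine and growth factor genes tested besides Il17a, 6 were higher in members (Csf2, Tnf, Areg, Ltb, Tnfsf11 and Hbegf) and 3 lower (Ifng, Ccl3 and Ccl5). Against other CD3 cells without Cd4 and Cd8b1, 4 were higher, with Tnf and Areg no longer called, and 5 were lower, with Ccl4 and Xcl1 added. Csf2, the growth factor GM-CSF, averaged 59.8 ± 15.9 against 9.14 ± 3.26 CPM in members and other CD3 cells (SD, n = 4; log2 difference 2.65 ± 0.27 (SE), edgeR adjusted p = 1.60e-06). Tnfsf11, which encodes RANKL, averaged 32.2 ± 24.7 against 6.01 ± 1.91 (log2 difference 2.24 ± 0.37 (SE), edgeR adjusted p = 0.000423), and Hbegf, an epidermal growth factor receptor ligand, 45.9 ± 31.8 against 8.85 ± 4.27 (log2 difference 2.25 ± 0.31 (SE), edgeR adjusted p = 5.91e-05). Il17f, the neighbour and partner of Il17a, was too low to be tested and had 3.25, 23.7, 35 and 46.4 CPM in the members of KO 1, KO 2, Control 1 and Control 2, against 0.256, 0, 4.30 and 0.393 in the other CD3 cells of the same libraries. Il22 had 1 UMI in the members of Control 1 and 0 in those of the other libraries. The gamma chain segments share transcripts or near-identical sequence with Tcrg-C1, which the rule used, so their levels are given with no test. Tcrg-V6 averaged 56 ± 60.6 against 1.82 ± 1.90 CPM in members and other CD3 cells, and its 2 Control values were the high ones. Tcrg-C2 averaged 135 ± 51.2 against 38.7 ± 13.6, and Tcrg-C4 133 ± 41.8 against 28.4 ± 6.34. Between members and other CD3 cells, Tnfsf11 lost its call without Control 2 (edgeR adjusted p = 0.0607), and Areg lost it without KO 2, Control 1 or Control 2 (edgeR adjusted p = 0.09, 0.207 and 0.38).

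Genes lower in members included those of alpha-beta T cells and of transcripts from other cells. Trac, the alpha constant region, had 61.7, 65.2, 112 and 84.7 CPM in the members of KO 1, KO 2, Control 1 and Control 2, against 349.8, 396, 477 and 458 in the other CD3 cells of the same libraries (log2 difference −2.51 ± 0.14 (SE), edgeR adjusted p = 4.18e-10), and Cd8a averaged 10.9 ± 9.75 against 188 ± 52.6 (log2 difference −4.25 ± 0.28 (SE), edgeR adjusted p = 7.04e-09). All 4 alpha-beta T markers were lower, which lies close to the rule, since members could hold neither Cd8b1 nor Cd4. Ifi27l2a, an interferon-induced gene, had 101, 62.3, 179 and 101 CPM in the members of KO 1, KO 2, Control 1 and Control 2, against 564, 426, 1016 and 694 in the other CD3 cells of the same libraries (log2 difference −2.74 ± 0.12 (SE), edgeR adjusted p = 4.32e-11), and 5 of 24 interferon response genes tested were lower and 0 higher. Dapl1, a gene of naive T cells, averaged 11.1 ± 9.22 against 108 ± 50.0 (log2 difference −3.61 ± 0.36 (SE), edgeR adjusted p = 1.22e-06), and 7 of 11 naive and recirculation genes were lower, Ccr7 among them. Of 21 type 1 and cytotoxic genes tested, 6 were lower in members and 0 higher (Eomes, Ifng, Cd27, Nkg7, Ccl5 and Gzmk). Haemoglobin transcripts Hba-a1, Hba-a2, Hbb-bs and Hbb-bt, the neutrophil genes S100a8 and S100a9, and Apoe completed the 10 lower genes with the smallest p. Hbb-bs had 0, 20.8, 21 and 0 CPM in the members of KO 1, KO 2, Control 1 and Control 2, against 361, 515, 660.2 and 6.38 in the other CD3 cells of the same libraries, and S100a8 had 3.25, 5.93, 17.5 and 159 CPM in the members of KO 1, KO 2, Control 1 and Control 2, against 180.2, 49.9, 88.1 and 905 in the other CD3 cells of the same libraries. These transcripts are known from erythroid and myeloid cells. S100a8 was highest in Control 2 in both cell groups, Hbb-bs was lowest there in the other CD3 cells, and the part of other cells' RNA in these sums was not tested.

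The 250 bases before the start of Il17a, Il17f and Il23r are shown because the rule used Il17a, Il17f is its neighbour and partner, and Il23r encodes the receptor for IL-23, which is known to drive both. Capitals mark AGGTCA or its reverse complement TGACCT, a half-site that nuclear receptors are known to bind. The sequences are from RefSeq (GRCm38.p6) and lie at chr1:20730655-20730904 (plus strand, Il17a), chr1:20784271-20784520 (minus strand, Il17f) and chr6:67491856-67492105 (minus strand, Il23r).
Il17a: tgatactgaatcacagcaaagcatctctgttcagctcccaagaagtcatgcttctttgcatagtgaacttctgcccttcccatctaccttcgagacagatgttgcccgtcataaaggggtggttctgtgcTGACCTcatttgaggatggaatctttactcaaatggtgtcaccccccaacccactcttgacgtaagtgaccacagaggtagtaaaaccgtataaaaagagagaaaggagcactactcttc
Il17f: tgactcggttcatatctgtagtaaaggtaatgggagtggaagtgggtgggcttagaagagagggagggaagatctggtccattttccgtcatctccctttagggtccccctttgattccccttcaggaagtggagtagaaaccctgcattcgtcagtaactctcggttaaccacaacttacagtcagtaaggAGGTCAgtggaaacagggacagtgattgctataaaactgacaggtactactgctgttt
Il23r: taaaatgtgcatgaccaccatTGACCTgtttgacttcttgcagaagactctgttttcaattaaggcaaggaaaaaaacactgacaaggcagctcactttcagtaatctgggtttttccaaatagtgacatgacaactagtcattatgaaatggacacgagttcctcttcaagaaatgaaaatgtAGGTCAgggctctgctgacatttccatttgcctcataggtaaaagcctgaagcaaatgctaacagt
Searched on both strands, the 6 letters were found in 14.0% of 32851 promoter windows of this length. They were found in 7 of 31 windows matched for the 42 type 17 regulators, receptors, Il17a, Il17f and Cd163l1, namely those of Il17a, Il17f, Il23r, Ccr6, Sox4, Hif1a and 5830411N06Rik. A match describes the letters and is no evidence that a factor bound there.

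Within the members, KO and Control libraries differed in opposite programmes: type 1, cytotoxic and recirculation genes were higher in KO, and type 17 receptor genes were lower. Of 4342 genes tested with edgeR, 187 passed at an adjusted p below 0.05, which is 4.31%, with 103 higher in KO (2.37%) and 84 lower (1.93%). DESeq2 called 36 of the same 4342 genes (0.829%). Among the 20 type 1 and cytotoxic genes tested of 21, 15 were higher in KO and 0 lower (median log2 change 1.67, against 0.01 over all genes). Among the 10 naive and recirculation genes tested of 12, 8 were higher and 0 lower (median 1.56). Among the 19 type 17 receptor and surface genes tested of 24, 9 were lower and 0 higher (median −1.30), and among the 14 type 17 regulators tested of 15 only Maf passed, and it was lower (median −0.57). DESeq2 called 4, 5, 3 and 1 of these 4 lists in the same directions. These lists were chosen with earlier results of these data known, so a list's direction is a description of these libraries. Leaving out KO 1, KO 2, Control 1 or Control 2 called 3.77%, 2.79%, 2.85% and 4.70% of genes. In these fits 13, 12, 9 and 17 type 1 and cytotoxic genes were higher, 8, 6, 9 and 8 naive genes were higher, and 7, 9, 9 and 11 receptors were lower, with 1 receptor higher without Control 2. Marked members made up 42.9% and 32.9% of the summed cells in KO 1 and KO 2, against 88.2% and 74.9% in Control 1 and Control 2. A different mix of the 2 kinds and a different level within cells cannot be told apart in these sums. The summed level of 11 NK cell markers was also higher in KO members, and that of 16 myeloid markers lower. Eomes, Gzma and Klre1 are in both the NK list and the type 1 and cytotoxic list, and Ccr2 is in both the myeloid list and the type 17 receptor list. The values of the sums are given below, and the part of these markers was not tested.

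Among the genes called higher were a chemokine, homing genes and NK receptors. Ccl5, a chemokine of effector lymphocytes, had 5361 and 5674 CPM in KO members, against 1283 and 1859.8 in Control members (log2 change 1.82 ± 0.22 (SE), edgeR adjusted p = 3.44e-05). Both KO values exceeded both Control values by more than either group's spread. Ly6c2, a surface protein of memory and effector T cells, had 974.8 and 875 CPM in KO members, against 284 and 229.9 in Control members (log2 change 1.87 ± 0.21 (SE), edgeR adjusted p = 1.65e-05). The 2 libraries of each group lay closer together than the groups in both genes. Klf2, the factor that maintains the exit receptor S1pr1, had 997 and 1432 CPM in KO members, against 312 and 498 in Control members (log2 change 1.57 ± 0.24 (SE), edgeR adjusted p = 0.00034). S1pr1 had 195 and 198.6 CPM in KO members, against 45.6 and 72.6 in Control members (log2 change 1.68 ± 0.29 (SE), edgeR adjusted p = 0.000851). In none of these 4 genes did the groups overlap, which was a condition for naming Ccl5, Ly6c2 and Klf2. Ly6c2, like Klrc2, Bcl2a1b and the Ifitm genes below, has close copies in the genome between which reads may be split or lost.

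NK receptor genes differed in the same direction. Klrd1, which encodes CD94, had 351 and 362 CPM in KO members, against 80.6 and 123 in Control members (log2 change 1.76 ± 0.25 (SE), edgeR adjusted p = 0.000107). Its partner Klrc2 had 279 and 317 CPM in KO members, against 17.5 and 74.6 in Control members (log2 change 2.52 ± 0.34 (SE), edgeR adjusted p = 6.98e-05), with Control 1 the lowest library. DESeq2 gave Klrc2 an adjusted p of 0.143. Eomes, the transcription factor of type 1 lymphocytes, had 61.7 and 71.2 CPM in KO members, against 10.5 and 10.1 in Control members (log2 change 2.67 ± 0.49 (SE), edgeR adjusted p = 0.00166). Cd27, a receptor of the interferon-making type of gamma-delta T cell, had 110.5 and 116 CPM in KO members, against 38.5 and 32.3 in Control members (log2 change 1.70 ± 0.32 (SE), edgeR adjusted p = 0.00234). The Control members were low in both genes, with 3 and 5 UMIs of Eomes and 11 and 16 of Cd27 in Control 1 and Control 2. Eomes did not pass without KO 2 (edgeR adjusted p = 0.0963).

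Cytotoxic and interferon genes varied more between libraries. Gzma, which encodes granzyme A, had 1277 and 462 CPM in KO members, against 3.50 and 244 in Control members (log2 change 2.63 ± 0.54 (SE), edgeR adjusted p = 0.00454). The 2 libraries of each group were far apart, with a single UMI in Control 1, and DESeq2 gave an adjusted p of 0.9999. Ifng, interferon gamma, had 227 and 104 CPM in KO members, against 3.50 and 76.6 in Control members (log2 change 1.78 ± 0.48 (SE), edgeR adjusted p = 0.0335), also with 1 UMI in Control 1. Prf1, perforin, had 18 and 29 UMIs in KO 1 and KO 2, against 0 and 9 in Control 1 and Control 2 (edgeR adjusted p = 0.00564). Nkg7, a granule protein, had 627 and 614 CPM in KO members, against 129.7 and 389 in Control members (log2 change 1.19 ± 0.30 (SE), edgeR adjusted p = 0.0221). Tbx21, which encodes T-bet, and Gzmb did not pass the test. Ifng did not pass without KO 1 or Control 1 (edgeR adjusted p = 0.0675 and 0.05), Prf1 without KO 2 (edgeR adjusted p = 0.149), and Nkg7 without Control 1 (edgeR adjusted p = 0.322).

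Further genes high in the ranking by p were Arl4c, Ctla2a, Itga4 and Gramd3. Arl4c, a small GTPase, had 244 and 267 CPM in KO members, against 63.1 and 72.6 in Control members (log2 change 1.90 ± 0.26 (SE), edgeR adjusted p = 8.37e-05). Ctla2a, a cysteine protease inhibitor, had 455 and 276 CPM in KO members, against 105 and 92.8 in Control members (log2 change 1.90 ± 0.26 (SE), edgeR adjusted p = 9.54e-05). Ctla2a was the more variable of both in KO. Itga4, the integrin alpha 4 chain used for homing, had 237 and 243 CPM in KO members, against 45.6 and 74.6 in Control members (log2 change 1.94 ± 0.28 (SE), edgeR adjusted p = 0.000141). Gramd3 had 114 and 145 CPM in KO members, against 14 and 28.2 in Control members (log2 change 2.50 ± 0.37 (SE), edgeR adjusted p = 0.000159). Each of the 4 was apart between the groups, which was a condition for naming it.

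**Figure D4:**
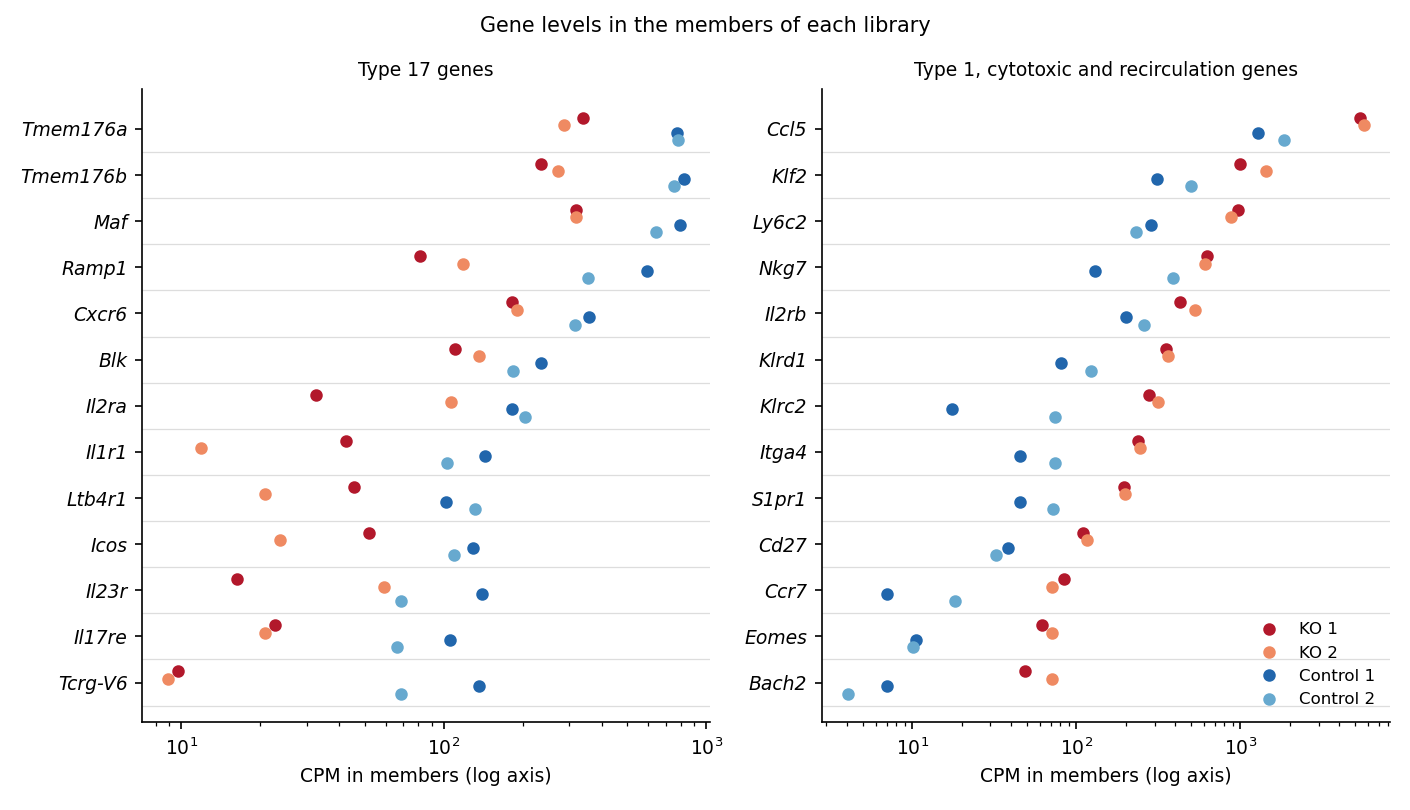
CPM (log axis) summed over the members of each library, for type 17 genes (left) and type 1, cytotoxic and recirculation genes (right). Ccl5 lay at 5361 and 5674 in KO members and 1283 and 1859.8 in Control members, and Ramp1 at 81.2 and 119 in KO members and 596 and 353 in Control members.

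On the lower side stood receptors and surface genes of the type 17 programme. Ramp1 had 81.2 and 119 CPM in KO members, against 596 and 353 in Control members (log2 change −2.19 ± 0.27 (SE), edgeR adjusted p = 3.44e-05). Tmem176b had 234 and 273 CPM in KO members, against 823 and 754 in Control members (log2 change −1.62 ± 0.21 (SE), edgeR adjusted p = 6.37e-05), and Tmem176a 338 and 288 CPM in KO members, against 774 and 783 in Control members (log2 change −1.30 ± 0.21 (SE), edgeR adjusted p = 0.000475). Il1r1 had 42.2 and 11.9 CPM in KO members, against 144 and 103 in Control members (log2 change −2.16 ± 0.40 (SE), edgeR adjusted p = 0.00186), and Il17re 22.7 and 20.8 CPM in KO members, against 105 and 66.6 in Control members (log2 change −1.90 ± 0.42 (SE), edgeR adjusted p = 0.00713). In all 5 genes both KO libraries lay below both Control libraries, which was a condition for naming Ramp1 and Tmem176b by rank. The other 4 receptor genes that passed were Ltb4r1, the costimulator Icos, the interleukin 2 receptor chain Il2ra and the tissue-homing receptor Cxcr6, with log2 changes of −1.84, −1.64, −1.44 and −0.84. Icos did not pass without KO 2 (edgeR adjusted p = 0.0926), and Il2ra without KO 1 (edgeR adjusted p = 0.178). Cxcr6 did not pass without KO 1, KO 2 or Control 1 (edgeR adjusted p = 0.147, 0.112 and 0.0946).

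Of the regulators, Maf had 318 and 317 CPM in KO members, against 792 and 643 in Control members (log2 change −1.15 ± 0.21 (SE), edgeR adjusted p = 0.00159). Il23r, from the receptor list, had 16.2 and 59.3 CPM in KO members, against 140.2 and 68.6 in Control members and did not pass (log2 change −1.33 ± 0.43 (SE), edgeR adjusted p = 0.0899). Sox13 and Blk had log2 changes of −0.88 ± 0.33 and −0.72 ± 0.25 (SE) with edgeR adjusted p = 0.166 and 0.124. Il23r, Sox13, Blk and Maf had lower values in both KO libraries than in both Control libraries. Il23r passed without KO 2 or without Control 2, with log2 changes of −2.57 and −1.80 (edgeR adjusted p = 0.000236 and 0.000513).

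The gamma chain segments are given with no test here too, because they share transcripts or sequence with Tcrg-C1 and the mix of rule markers differed between the groups. Tcrg-V6, shown above, had 9.75 and 8.89 CPM in KO members, against 137 and 68.6 in Control members. It was found in 2 of 98 and 3 of 82 members in KO 1 and KO 2, against 30 of 195 and 29 of 171 in Control 1 and Control 2. The constant segments Tcrg-C2 and Tcrg-C4 overlapped between the groups. Tcrg-C2 had 130.0 and 198.6 CPM in KO members, against 73.6 and 139 in Control members, and Tcrg-C4 139.7 and 172 CPM in KO members, against 73.6 and 145 in Control members.

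The other lower genes with the smallest p were not of one kind. Ifitm3, an interferon-induced membrane protein, had 3 and 0 UMIs in KO 1 and KO 2, against 57 and 96 in Control 1 and Control 2, a ratio of KO to Control levels of 0.0237 (95% counting interval 0.00484 to 0.0707; edgeR adjusted p = 2.14e-06). Its neighbour Ifitm2 had 3 and 0 UMIs in KO, against 30 and 47 in Control, a ratio of 0.0472 (0.00952 to 0.143; edgeR adjusted p = 8.37e-05). Cxcl2, a chemokine for neutrophils, had 22.7 and 5.93 CPM in KO members, against 515 and 169 in Control members (log2 change −4.49 ± 0.52 (SE), edgeR adjusted p = 1.94e-05). Ckb, creatine kinase B, had 71.5 and 50.4 CPM in KO members, against 273 and 244 in Control members (log2 change −2.07 ± 0.27 (SE), edgeR adjusted p = 6.59e-05). Cxcl2 was low in both KO libraries and varied in Control, while Ckb was even within each group. Bcl2a1b, an apoptosis inhibitor, had 107 and 77.1 CPM in KO members, against 336 and 301 in Control members (log2 change −1.77 ± 0.25 (SE), edgeR adjusted p = 0.00011), and Selenop, a selenium carrier, 169 and 139 CPM in KO members, against 449 and 422 in Control members (log2 change −1.48 ± 0.23 (SE), edgeR adjusted p = 0.000267). Krt83, a keratin gene, had 9.75 and 2.96 CPM in KO members, against 91.1 and 76.6 in Control members, and AY036118 754 and 196 CPM in KO members, against 3434 and 2826 in Control members. AY036118 differed as much in the other CD3 cells (difference of the log2 changes 0.01). Cxcl2, Ifitm3 and Selenop are also known from myeloid cells, whose 16 markers summed to 409 and 412 CPM in members of KO 1 and KO 2, against 1388 and 1029 in Control 1 and Control 2, and their part was not tested.

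Among secreted factors, 4 of 15 tested were higher in KO members (Ifng, Ccl3, Ccl5 and Xcl1) and 3 lower (Cxcl2, Areg and Tnfsf11). Over all genes 2.37% were higher and 1.93% lower. Areg, the growth factor amphiregulin known for tissue repair and fibrosis, had 1 and 4 UMIs in KO 1 and KO 2, against 14 and 17 in Control 1 and Control 2 (log2 change −2.32 ± 0.65 (SE), edgeR adjusted p = 0.0454). Tnfsf11 had 3 and 4 UMIs in KO, against 15 and 27 in Control (log2 change −2.26 ± 0.52 (SE), edgeR adjusted p = 0.0103). Il17f had 1 and 8 UMIs in KO, against 10 and 23 in Control, and did not pass (log2 change −1.56 ± 0.60 (SE), edgeR adjusted p = 0.169). The 3 genes had few UMIs in every library. Xcl1 had 354 and 219 CPM in KO members, against 77.1 and 171 in Control members (log2 change 1.13 ± 0.30 (SE), edgeR adjusted p = 0.0308). Pdcd1, which encodes the checkpoint receptor PD-1, had 3 and 4 UMIs in KO, against 25 and 20 in Control (log2 change −2.40 ± 0.56 (SE), edgeR adjusted p = 0.0109). Areg did not pass in any of the 4 fits that left out 1 library (edgeR adjusted p = 0.281, 0.0815, 0.674 and 0.37 without KO 1, KO 2, Control 1 and Control 2). Tnfsf11 did not pass without Control 2 (edgeR adjusted p = 0.327), Pdcd1 without Control 1 (edgeR adjusted p = 0.513), Xcl1 without KO 1 or Control 1 (edgeR adjusted p = 0.185 and 0.256) and Ccl3 without KO 2 or Control 1 (edgeR adjusted p = 0.524 and 0.143).

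Factors of resting, recirculating lymphocytes were higher in KO members. Tcf7, which encodes TCF1, had 344 and 406 CPM in KO members, against 161 and 159 in Control members (log2 change 1.24 ± 0.22 (SE), edgeR adjusted p = 0.00156). Satb1, a chromatin organizer of thymocytes and naive cells, had 305 and 258 CPM in KO members, against 133 and 90.8 in Control members (log2 change 1.38 ± 0.25 (SE), edgeR adjusted p = 0.00155). Both factors were at similar levels in the 2 libraries of a group. Ccr7, the receptor for lymph node entry, had 84.5 and 71.2 CPM in KO members, against 7.01 and 18.2 in Control members (log2 change 2.45 ± 0.46 (SE), edgeR adjusted p = 0.00214). Bach2, a repressor of effector differentiation, had 15 and 24 UMIs in KO members, against 2 and 2 in Control members (log2 change 3.47 ± 0.60 (SE), edgeR adjusted p = 0.000947), and did not pass without KO 2 (edgeR adjusted p = 0.227). The 4 genes were apart between the groups. The other CD3 cells had values in the same direction. Their log2 ratios of the KO mean over the Control mean were 0.87 for Tcf7, 1.27 for Satb1 and 1.78 for Ccr7, and none of the 3 passed the test of the difference between members and other CD3 cells (edgeR adjusted p = 0.79, 0.966 and 0.778). Bach2 passed it (log2 ratio 0.64 in other CD3 cells, edgeR adjusted p = 0.0313), as did 4 of the 12 naive and recirculation genes in all. Over all CD3 cells, which include the members, 12 of these 12 genes had a positive log2 change (median 0.87), of which edgeR called 1, Klf3, and DESeq2 7.

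Further lists held calls in both directions or few calls. Over all genes tested 4.31% were called, 2.37% higher and 1.93% lower, so 1 or 2 calls in a list were not read as a result about the list. Of 17 T cell receptor signalling genes tested, 5 were higher and 0 lower (Fyn, Cd28, Cd6, Ptprc and Txk, median log2 change 0.24). Of 16 residency and activation genes 2 were lower (Cxcr6 and Bhlhe40, median −0.12), and of 9 costimulation and checkpoint genes Cd28 was higher and Pdcd1, Icos and Cd226 lower (median −0.56). Of 11 chemokine receptors 3 were higher, Ccr7 and S1pr1 among them, and Cxcr6, Ltb4r1 and Gpr183 were lower (median 0.42). Of 16 NF-kappaB subunits and targets Traf1 was higher and Bcl2a1b lower, of 14 apoptosis and survival genes Bcl2 was higher and Bcl2a1b and Bcl2a1d lower, and of 9 lipid metabolism genes only Plin2, a coat protein of lipid droplets, was lower. Of 5 circadian and nuclear receptor genes Bhlhe40 was lower, of 3 PDGF and profibrotic genes Areg alone was lower, and of 13 mitochondrially encoded genes mt-Nd4 alone was higher. Of those 13 mitochondrial genes 12 had a positive log2 change (median 0.47), with 6 at an unadjusted edgeR p below 0.05. Over all CD3 cells, which include the members, 11 of the 13 were positive (median 0.53). Emp1 was the 1 tested gene of a chromosome 6 pair and was lower (log2 change −1.55 ± 0.43 (SE), edgeR adjusted p = 0.0398), but did not pass without KO 1 or Control 2 (edgeR adjusted p = 0.239 and 0.345). By edgeR no gene passed among 11 interferon response, 24 immediate early and stress, 8 cell cycle and 5 CYR61 and integrin receptor genes. DESeq2 called none of these either, and 2, 7, 1 and 1 of the 4 lists had an unadjusted edgeR p below 0.05. The cell cycle genes rested on single libraries. Without KO 2 5 were higher (Mki67, Top2a, Ube2c, Birc5 and Hmgb2, median log2 change 1.58), without Control 1 Mki67 alone and without Control 2 3 (Mki67, Top2a and Ube2c), while without KO 1 Stmn1 was lower and the median was −1.01. Ifit1 was higher without KO 2 or Control 1. Without Control 2 Ifi27l2a and Atf3 were lower and Itgb1 was higher.

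Differences between libraries held in part within the marked members. With only those cells, 43 of 2804 genes passed (1.53%), 22 higher in KO (0.785%) and 21 lower (0.749%). Of these 43 genes, 36 were also called in the same direction over all members, which is 83.7% of the calls in marked members and 19.3% of the calls over all members. The marked members are part of all members, so the 2 fits share cells and this overlap is no separate support. Ccl5 had 2372 and 3174 CPM in KO marked members, against 316 and 798 in Control marked members (log2 change 2.24 ± 0.28 (SE), edgeR adjusted p = 6.34e-06). Ramp1 had 129 and 211 CPM in KO marked members, against 636 and 425 in Control marked members (log2 change −1.69 ± 0.30 (SE), edgeR adjusted p = 0.00155). Both genes were apart between the groups within this kind. Klf2 had 707 and 1199 CPM in KO marked members, against 308 and 457 in Control marked members (log2 change 1.24 ± 0.26 (SE), edgeR adjusted p = 0.00628). Tcrg-V6 had 25.9 and 22.2 CPM in KO marked members, against 154 and 99 in Control marked members, given with no test. Of the type 1 and cytotoxic list 4 of 10 tested were higher (Klrk1, Klrc1, Nkg7 and Ccl5), of the naive list 2 of 9 (Klf2 and Klf3), and of the type 17 receptors 2 of 19 were lower (Ramp1 and Tmem176b).

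Other type 17 genes in marked members did not pass, with edgeR adjusted p = 0.727 for Maf and 0.551 for Il1r1. Their log2 changes were −0.29 ± 0.22 and −0.78 ± 0.42 (SE). Among members with Trdc and Tcrg-C1 only, 0 of 2341 genes passed by edgeR (0%), and 240 had an unadjusted p below 0.05. In those cells Ccl5 had 7167 and 6586 CPM in KO cells, against 7464 and 4256 in Control cells, Klrd1 500.4 and 396 CPM in KO cells, against 570.1 and 184 in Control cells and Maf 115 and 186 CPM in KO cells, against 466 and 401 in Control cells. With members limited to at least 3 UMIs over the CD3 genes and 0 of the NK genes Ncr1, Klrb1c and Tyrobp, a limit added after the data were seen, 63 of 2875 genes passed (2.19%), Ly6c2, Ccl5 and Ramp1 among them. With at least 3 of the 5 markers, 5 of 2069 genes passed (0.242%).

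Il17a itself could be compared only where it had not chosen the cells. Cells chosen by at least 2 of the other 4 markers, with the same CD3 and exclusion terms, held Il17a in 7 of 98 and 2 of 79 cells in KO 1 and KO 2, against 29 of 184 and 29 of 164 in Control 1 and Control 2. They had 192 and 39.3 CPM in KO cells, against 338 and 367 in Control cells, from 59 and 13 UMIs in KO and 92 and 176 in Control. Over these cells 127 of 4259 genes passed by edgeR (2.98%), 1.62% higher and 1.36% lower. The log2 change of Il17a was −1.63 ± 0.43 (SE) and did not pass (edgeR adjusted p = 0.0668; DESeq2 adjusted p = 0.999). These cells include the members with Trdc and Tcrg-C1 only, which hold no Il17a by definition. They were 56 of 98 and 55 of 79 cells in KO 1 and KO 2, against 23 of 184 and 43 of 164 in Control 1 and Control 2. A different mix of the 2 kinds and a different level within cells cannot be told apart here. Over the fits that left out 1 library the log2 change ranged from −3.16 without KO 1 to −0.88 without KO 2, and it passed without Control 1 or Control 2 (edgeR adjusted p = 3.76e-07 and 3.86e-05). With 1 library left in a group, that library was assumed to vary like the others. In B cells Il17a was found in 2, 0, 0 and 1 cells of KO 1, KO 2, Control 1 and Control 2.

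The KO to Control difference was set against that of the other CD3 cells by a test of the interaction. It passed for 49 of 10023 genes (0.489%), 36 with a higher and 13 with a lower change in members, and DESeq2 called 19. Without Control 1 and without Control 2 the counts were 77 and 114. For Ccl5 the log2 ratio of the group means was 1.81 in members and −0.50 in other CD3 cells (difference 2.35 ± 0.17 (SE), edgeR adjusted p = 1.77e-07). For Ly6c2 the ratios were 1.85 and 0.31 (difference 1.56 ± 0.17, edgeR adjusted p = 5.97e-05). For Klrd1 they were 1.81 and 0.12, and for Eomes 2.69 and 0.22 (differences 1.67 and 2.50, edgeR adjusted p = 0.000895 and 0.0127). Of the 21 type 1 and cytotoxic genes 11 had a higher change in members and 0 a lower one (median difference in log2 1.60). With only marked members as the first cell group, 47 of 10093 genes passed (0.466%). Of 27 named genes, 13 then lost their call and 14 kept their side of the threshold. The mix of the 2 kinds of member differed between the groups, so mix and level within cells cannot be told apart in this test either.

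Some genes had a lower change in members than in other CD3 cells. For Ramp1 the log2 ratios were −2.25 in members and −0.83 in other CD3 cells (difference −1.34 ± 0.25 (SE), edgeR adjusted p = 0.0168). For Selenop they were −1.50 and 0.03, and for Zfp36l1, which encodes an RNA decay factor, −1.06 and 0.08 (edgeR adjusted p = 0.00187 and 0.00124). Of the 24 type 17 receptor and surface genes Il7r, the interleukin 7 receptor, and Ramp1 had a lower change in members, and none of the 15 regulators passed (3 at an unadjusted edgeR p below 0.05). Ramp1 did not pass without KO 2 (edgeR adjusted p = 0.0647), nor Il7r without KO 1 or KO 2 (edgeR adjusted p = 0.135 and 0.115).

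**Figure D5:**
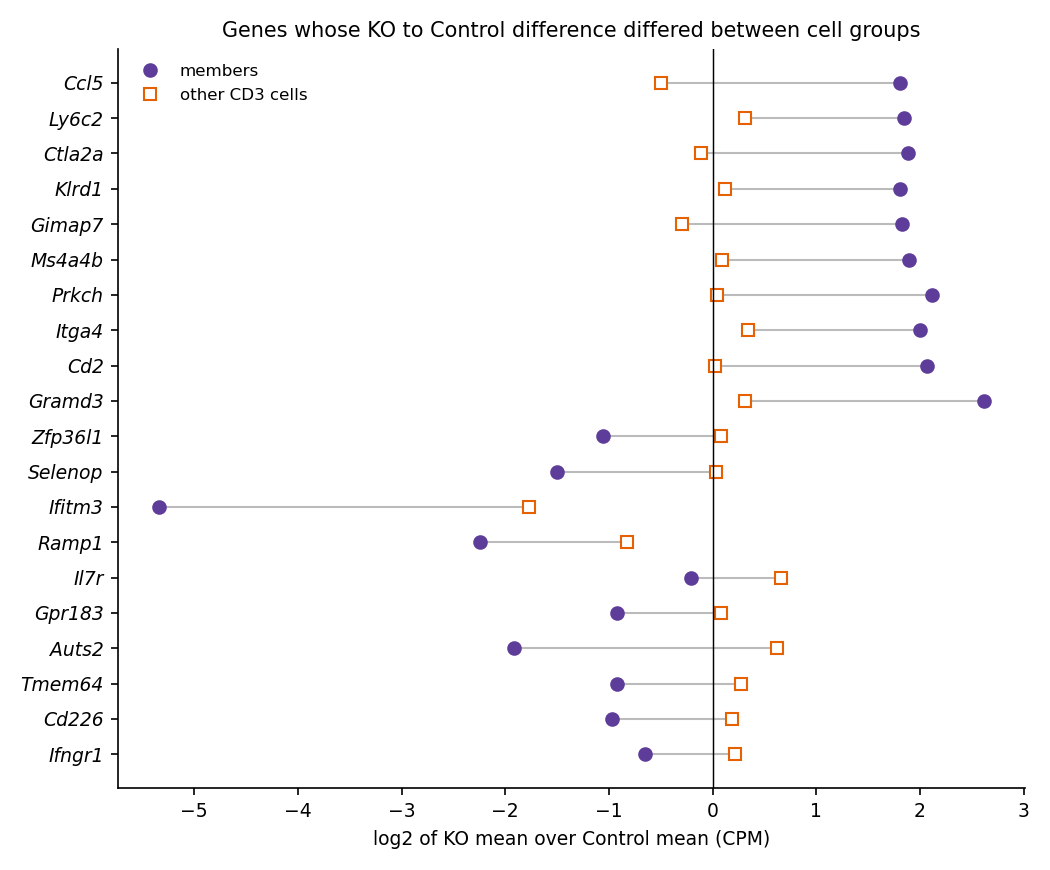
Log2 ratio of the KO mean over the Control mean of CPM in members (filled circles) and other CD3 cells (open squares), for the 20 genes that led the interaction test, 10 in each direction. Ccl5 stood at 1.81 in members and −0.50 in other CD3 cells. The members pool both kinds, whose mix differed between the groups.

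Transcripts known as markers of other cell types moved with the groups in the members. The 11 NK cell markers summed to 2118 and 1284 CPM in members of KO 1 and KO 2, against 428 and 825 in Control 1 and Control 2. All 11 were found in KO 1, KO 2 and Control 2, and Klrb1c, Klra8 and Klri2 were at 0 in Control 1. The same list summed to 983 and 1057 in other CD3 cells of KO, against 880 and 811 in Control. Of 7 NK markers tested, 4 were higher in KO members by edgeR (Klrb1c, Eomes, Gzma and Klre1) and 0 by DESeq2, with 2 at an unadjusted DESeq2 p below 0.05. Eomes, Gzma and Klre1 are also in the type 1 and cytotoxic list, so these calls were counted in both lists. Klrb1c did not pass without KO 1 or Control 1 (edgeR adjusted p = 0.0568 and 0.0782). Of the 16 myeloid markers, whose sums stand above, 7 were found in each KO library, 14 in Control 1 and 10 in Control 2. Csf1r and C1qb were at 0 in both KO libraries, and C1qa and C1qc at 0 in both KO libraries and Control 2. Lyz2, Cst3 and S100a9 were lower in KO members, Lyz2 with 22.7 and 8.89 CPM in KO members, against 417 and 80.7 in Control members (log2 change −3.84 ± 0.63 (SE), edgeR adjusted p = 0.000591). The 11 B cell markers summed to 634 and 270 in KO members, against 662 and 1234 in Control members, and Cd74, H2-Aa, H2-Ab1 and H2-Eb1 were lower, while Ighm was higher. By edgeR none of 3 alpha-beta T markers tested passed, by DESeq2 none, and none had an unadjusted p below 0.05. These 4 markers summed to 962 and 1082 in KO members, against 992 and 1150 in Control members. Hepatocyte markers summed to 6.50 and 0 in KO members, against 73.6 and 32.3 in Control members. Mesothelial or fibroblast markers summed to 3.25 and 2.96, against 200 and 26.2, and haemoglobin to 3.25 and 35.6, against 42.1 and 2.02. None of the last 3 lists reached the level tested, and the part of all these transcripts in the results was not tested.

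Over all CD3 cells, without any choice by gamma-delta markers, the 5 markers were lower in both KO libraries. These sums include the members, which the 5 markers chose, so the values are no separate support for the lower share of members. Within the members, Trdc and Tcrg-C1 were found more often in KO, as given above. Trdc had 80.2 and 82.1 CPM in KO CD3 cells, against 184 and 91.3 in Control CD3 cells, and Tcrg-C1 32.2 and 32.4 CPM in KO CD3 cells, against 78.5 and 51 in Control CD3 cells. Cd163l1 had 13.7 and 11.3 CPM in KO CD3 cells, against 64.4 and 25.3 in Control CD3 cells. Trdv4 had 8.74 and 3.07 CPM in KO CD3 cells, against 79.9 and 24.7 in Control CD3 cells, and Il17a 8.49 and 2.12 CPM in KO CD3 cells, against 42.9 and 27.4 in Control CD3 cells. Trdc was closest between the groups, with Control 2 near both KO libraries, and Trdv4 and Il17a were farthest apart. Of 12080 genes tested there, 53 passed by edgeR (0.439%) and 407 by DESeq2 (3.37%). Leaving out 1 library gave 13, 3, 882 and 2105 genes by edgeR without KO 1, KO 2, Control 1 and Control 2. By edgeR none of the 15 type 17 regulators and none of the 24 receptor and surface genes passed, with 6 and 12 at an unadjusted p below 0.05. By DESeq2 3 regulators were lower and 0 higher, and 7 receptors were lower and 2 higher. Il1r1 had 3.32 and 1.80 CPM in KO CD3 cells, against 28.5 and 8.33 in Control CD3 cells (edgeR adjusted p = 0.0828; DESeq2 adjusted p = 0.000108). Fewer cells of this kind and less RNA per cell cannot be told apart in such sums. Transcripts known as markers of other cell types moved with the groups here as well. The 10 mesothelial or fibroblast markers summed to 6.03 and 9.31 CPM in CD3 cells of KO 1 and KO 2, against 1055 and 203 CPM in Control 1 and Control 2, and all 10 were lower by DESeq2, while edgeR called 1, Dcn. In KO 1 7 and in KO 2 5 of the 10 were at 0, Col3a1 and Col1a2 in both, and none in Control. The 16 myeloid markers summed to 946 and 698 CPM in KO, against 1439 and 2720 in Control, with 2 lower by edgeR and 4 by DESeq2. C1qa, C1qb and C1qc were at 0 in KO 2 alone. The 11 NK cell markers summed to 1026 and 1066 CPM in KO, against 844 and 811 in Control, with 2 higher by edgeR and 4 by DESeq2. The part of these transcripts in the result was not tested.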

How the data were processed

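Droplet single-cell RNA libraries of mouse liver were analysed, 2 from Cyr61 KO and 2 from Control. The files that the authors deposited hold raw UMI counts, which Cell Ranger 3.1.0 produced, per the file headers, from reads aligned to mm10, per the submitters' processing notes. The tables held 32285 genes and no barcode under 500 UMIs. Further filters were not given in the sources used here. Barcodes with at least 250 genes and at most 25% mitochondrial UMIs were kept.

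The members and gene lists were chosen with earlier results of these data known. Counts were summed per library over members and over the other CD3 cells and tested with edgeR 4.0.16 (quasi-likelihood test, TMM scaling, filterByExpr, Benjamini-Hochberg adjustment, threshold 0.05). KO was compared with Control without a block, and members with other CD3 cells with the library as a block. The effects in the 2 cell groups were compared by an interaction term. DESeq2 1.42.0 was an alternative. CPM values are UMIs per 1000000 UMIs of the summed cells, and SDs are over libraries. Single shares were compared by an exact permutation test over libraries.

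Genes were named by rule. Genes that passed were ranked by p. Between KO and Control, up to 10 in each direction were named if the groups did not overlap, and between members and other CD3 cells the first 15 higher and the first 10 lower if all 4 libraries shared the direction. Members of the type 17, cytokine and receptor segment lists could be named freely, and up to 6 of any other list. Pdcd1, Emp1 and further list genes outside these limits were named after their values were seen. Some genes that the rule takes are not reported here.

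Doublets were kept. Scrublet (scanpy 1.11.5) marked at most 1.45% of a library's barcodes and 0 in both Control libraries. A rate of 0.8% per 1000 barcodes would give 188 in Control 1 and 421 in Control 2, so the marks do not show that doublets were rare. Leaving out the highest scores, 0.8% of barcodes per 1000, was an alternative. The tools were tried on simulated counts of 4023 genes for KO against Control in members. There edgeR found 39% of the 2-fold and 94% of the 4-fold changes put in, and 5% of its calls were false. DESeq2 found 13% and 65%, and 0% of its calls were false. Every simulated gene had the same dispersion of 0.0208, so these rates do not carry over to genes that vary more between libraries. Members held 285371 to 495764 UMIs per library. Intervals are exact binomial and cover counting error only. Libraries of a group differed by more than sampling noise (chi-squared per degree of freedom 2.59 for KO and 3.41 for Control), so each was counted as a library of its own. This does not tell whether they came from separate animals, since 2 draws of mixed cells from 1 animal could also differ so. Same-numbered libraries did not deviate together (correlation 0.0171 over 4350 genes), so the numbers were not taken as pairs.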

Additional observations from a re-analysis of the deposited data

Results flagged for a closer look

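In members, 49 genes had a KO to Control change that differed from the change in the other CD3 cells by the edgeR interaction test. Members pool both kinds of cell, whose mix differed between the groups, so mix and level within cells cannot be told apart. The first 5 in each direction by p, among genes whose groups did not overlap in members, are given here with the difference of the log2 changes, members minus other CD3 cells. The difference was 2.35 for Ccl5, 1.56 for Ly6c2, 1.95 for Ctla2a, 1.67 for Klrd1 and 2.13 for Gimap7, a small GTPase of lymphocytes. It was −1.12 for Zfp36l1, −1.54 for Selenop, −3.63 for Ifitm3, −1.34 for Ramp1 and −0.84 for Il7r.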

How the results depend on the processing

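The lower share of members in KO, a log2 ratio of −1.13, kept its direction under 8 alternatives, and ranged from −1.47 to −0.69 with 1 library left out. It was 0.77 for members with Trdc and Tcrg-C1 only. Against 187 genes between KO and Control in members, DESeq2 gave 36, at least 3 markers 5, marked members 43, members with Trdc and Tcrg-C1 only 0, members with 3 CD3 UMIs and no NK gene 63, and 1 library left out 136 to 233. A replicate block gave 334. Against 752 genes between members and other CD3 cells, the fit with no replicate block gave 356, and 1 library left out 339 to 725. Against other CD3 cells without Cd4 and Cd8b1, 610 genes became 342 by DESeq2 and 180 to 632 with 1 library left out. The 49 interaction genes became 19 by DESeq2 and 56 to 114 with 1 library left out. Over all CD3 cells, 53 genes became 407 by DESeq2, 934 with a replicate block and 3 to 2105 with 1 library left out. Il17a in cells chosen by the other 4 markers had a log2 change of −1.75 with a replicate block (edgeR adjusted p = 2.23e-10), and −3.16 to −0.88 with 1 library left out. The subsets hold fewer cells and genes and another mix of the 2 kinds, and the causes of these different counts were not tested.

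Of 809 values of named genes between KO and Control in members under alternatives, 802 kept their direction and 617 also their side of the threshold. The 7 others were Blk at 0.14 and Sox13 at 0.048 with at least 3 markers, Blk at 0.13 in marked members, Tcrg-C2 at −0.63 with at least 3 markers and −0.17 in marked members, and Nkg7 at −0.16 and Xcl1 at −0.015 in members with Trdc and Tcrg-C1 only. All 658 values between members and other CD3 cells and all 162 of the interaction kept their direction. The 2 libraries a group and 82 to 195 members a library limit what could be detected. In simulated counts with the same dispersion for every gene, edgeR recovered 4% of 2-fold and 43% of 4-fold interaction effects.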
